A study of Mus musculus with 8 samples.

Results

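The visceral endoderm (VE) is the outer epithelium of the early mouse conceptus. Before the placenta works, it feeds the embryo: it takes up maternal proteins and lipids from its apical surface, packs lipid into particles built on apolipoprotein B, and secretes carrier proteins that the liver makes later in life. During normal gastrulation the part of the VE that covers the embryo proper gives way to definitive endoderm (DE), the layer that forms the gut. The 10 genes described here stand for this nutritive work. They are the apolipoproteins Apoa1, Apoa4, Apob, Apoc2 and Apoe, the particle assembly factor Mttp, the uptake receptor genes Cubn and Amn, and the secreted carriers Afp and Ttr. They are a named set, taken with results of these pools already known, so their common direction is no independent evidence. They are 10 of the 14180 genes with a tested probe set of their own on the larger array.

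Total RNA from pools of embryos at embryonic day 7.5 was hybridised to Affymetrix arrays, which report 1 signal for each probe set, a group of short probes against 1 transcript. The 2 wild-type pools held 53 and 50 ICR embryos. The 2 Foxa2 null pools held 53 and 48 embryos grown from Foxa2 null embryonic stem cells by tetraploid complementation, a method in which a wild-type, GFP-marked tetraploid host supplies the extra-embryonic tissues, the VE included. Each of the 4 extracts was measured on 1 U74Av2 and 1 MOE430v2 array, so the 8 arrays hold 4 pools and n is 2 pools per genotype on every scale. The labels call the tissue epiblast of mixed sex. Per the methods the extra-embryonic region was cut away and the embryo proper was kept, with the host-derived VE of the tetraploid embryos. The study states that the Foxa2 null epiblast does not displace this VE, whereas a wild-type epiblast does displace its own. It therefore treats higher signals in the mutant as confounded, which was not tested here. The VE of the Foxa2 null pools is thus wild-type tissue of the host. The labels of the mutant MOE430v2 arrays also give ICR and those of the mutant U74Av2 arrays give no strain, so genotype, stem cell origin and the tetraploid host cannot be told apart. Per the methods, embryos ranged from mid-streak to head-fold, and the study's supplement details their stages. Wild-type pool 2 was the youngest. In pooled tissue, more VE cells and more RNA per VE cell cannot be told apart either.

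Foxa2 itself was read first, as a check of the labels. U74Av2 gave it a log2 signal of 7.37 and 8.08 for wild-type and of 6.39 and 6.55 for Foxa2 null. On MOE430v2 it was 9.61 and 10.17 against 8.96 and 9.06. Both null pools lay below both wild-type pools on each platform, and the differences of -1.25 and -0.88 did not pass the test (limma, Benjamini-Hochberg adjusted p = 0.130 and 0.142). Where these probe sets lie relative to the targeted allele was not analysed here.

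Of the 36 probe sets of the 10 genes, 12 were on U74Av2 and 24 on MOE430v2, and 10 and 23 of them had a mean signal above the lowest 30% of their array and were tested. Amn had no probe set of its own on U74Av2. Foxa2 null minus wild-type was above 0 for 8 of 10 probe sets on U74Av2, where 47.6% of all probe sets were, and for 22 of 23 on MOE430v2, where 50% were. The 2 exceptions on U74Av2 were Afp and Apoe, and the exception on MOE430v2 was 1 of the Apob probe sets. Both null pools lay above both wild-type pools for 5 of 10 probe sets (18.6% of all on U74Av2) and for 13 of 23 (21.5% of all on MOE430v2). The reverse order was found for 1 probe set on each platform (21.4% and 21.8% of all). No probe set passed an adjusted p under 0.05 by limma with Benjamini-Hochberg adjustment, while 0.276% of all probe sets did on U74Av2 and 0.435% on MOE430v2. At an unadjusted p under 0.05, 4 probe sets were higher and 1 lower on U74Av2, against 5.01% of all higher. On MOE430v2 the counts were 11 higher and 1 lower, against 6.04% of all higher. Probe sets of 1 gene share transcripts, so these counts are not independent observations.

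**Figure D1:**
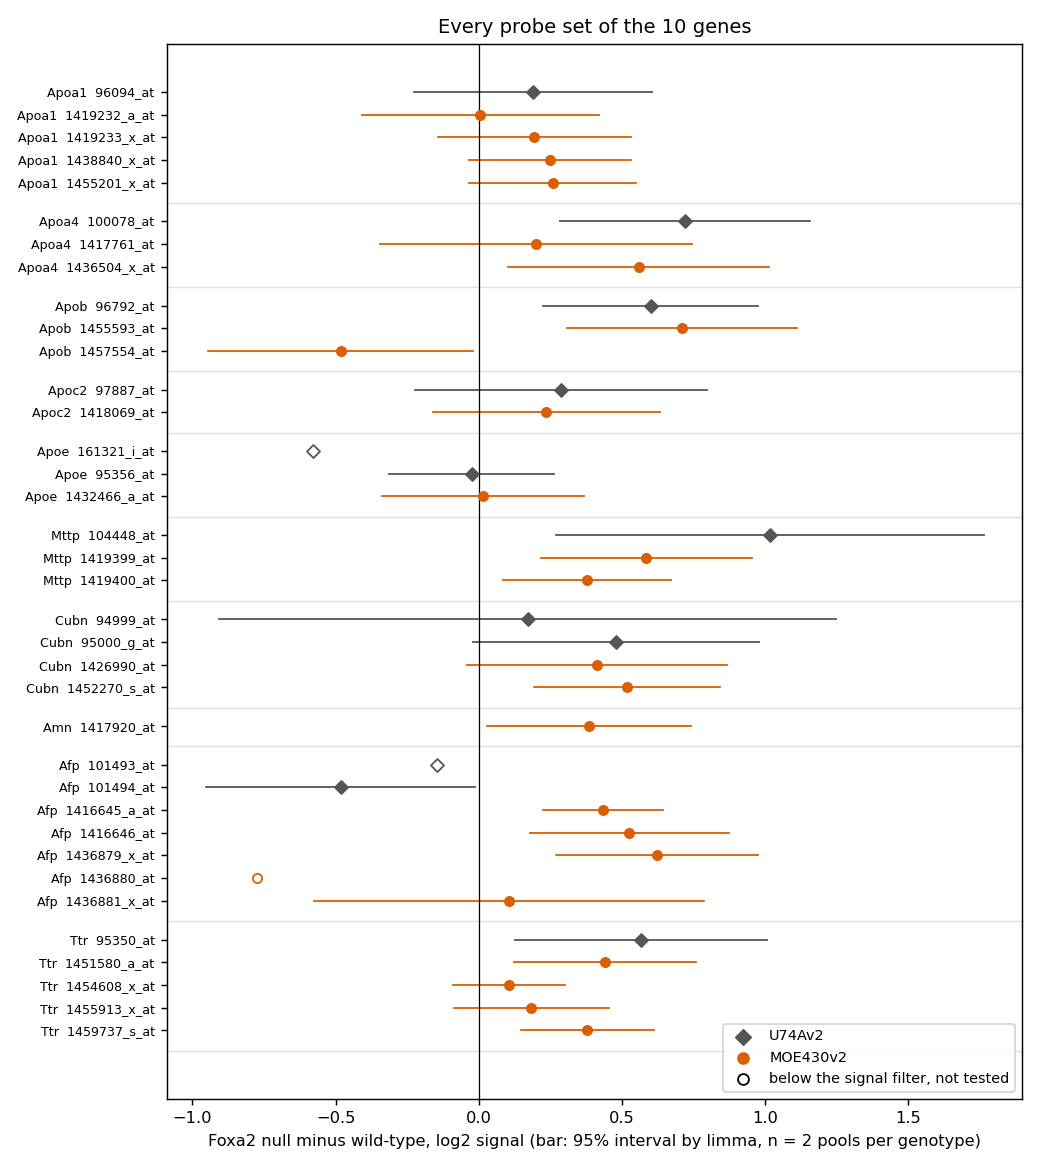
Foxa2 null minus wild-type difference in log2 signal (x axis) for each of the 36 probe sets of the 10 genes, with the 95% interval by limma as a bar (n = 2 pools per genotype, no bar for probe sets below the signal filter). Most points lie right of 0, Mttp on U74Av2 lies farthest right at 1.02, and the tested points left of 0 are Apoe and Afp on U74Av2 and 1 Apob probe set on MOE430v2.

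With a single probe set per gene, its brightest on average, the median difference over the measured genes was 0.48 on U74Av2 (9 genes, all genes -0.01) and 0.38 on MOE430v2 (10 genes, all genes -0.01). Differences ran from -0.48 for Afp to 1.02 for Mttp on U74Av2, and from 0.02 for Apoe to 0.71 for Apob on MOE430v2. The shift was carried unequally by the null pools: the medians were 0.10 and 0.19 when Foxa2 null pool 1 was left out, and came to 0.72 and 0.55 when Foxa2 null pool 2 was.

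Foxa proteins bind DNA through a forkhead domain and are long known for their sites at liver and endoderm genes, so the upstream sequence of the genes was read for this motif. RefSeq promoters were found for 9 of the 10 genes, all but Ttr, in assembly GRCm38.p6. The windows hold the 250 bases before each annotated start, in the sense of the gene. Those of Apoa1 (chr9:46228380-46228629, plus strand), Apob (chr12:7977427-7977676, plus strand) and Afp (chr5:90490464-90490713, plus strand) are shown because they hold the forkhead-like word TGTTTGC on either strand, in capitals. That of Mttp (chr3:138143419-138143668, minus strand) is shown as the gene with the highest combined difference, and it holds no match.
Apoa1: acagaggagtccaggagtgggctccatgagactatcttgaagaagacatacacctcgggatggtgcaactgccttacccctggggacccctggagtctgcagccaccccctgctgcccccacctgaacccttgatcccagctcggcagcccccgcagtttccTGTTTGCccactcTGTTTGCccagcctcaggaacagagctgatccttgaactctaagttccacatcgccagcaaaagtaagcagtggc
Apob: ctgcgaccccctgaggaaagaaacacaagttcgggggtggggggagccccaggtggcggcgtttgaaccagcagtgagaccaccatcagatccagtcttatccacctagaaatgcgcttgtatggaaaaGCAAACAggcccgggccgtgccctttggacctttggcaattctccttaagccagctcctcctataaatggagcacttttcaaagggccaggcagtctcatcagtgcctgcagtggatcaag
Afp: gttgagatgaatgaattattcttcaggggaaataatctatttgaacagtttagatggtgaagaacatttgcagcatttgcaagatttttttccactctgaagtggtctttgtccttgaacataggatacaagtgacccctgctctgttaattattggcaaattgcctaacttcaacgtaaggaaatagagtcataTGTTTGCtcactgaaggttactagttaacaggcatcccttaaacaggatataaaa
Mttp: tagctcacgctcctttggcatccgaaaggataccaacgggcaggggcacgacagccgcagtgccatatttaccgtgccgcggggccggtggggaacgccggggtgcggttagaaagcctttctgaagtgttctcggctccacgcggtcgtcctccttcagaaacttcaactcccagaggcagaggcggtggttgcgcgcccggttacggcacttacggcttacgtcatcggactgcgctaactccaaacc

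The word TGTTTGC began 88 and 75 bases before the Apoa1 start, 55 before the Afp start, and, on the opposite strand, 121 before the Apob start. It was present in 4.3% of all 32851 promoter windows. The related word TGTTTAC, in 3.17% of windows, matched none of the 9 genes. The HNF1 consensus was in 0.371% of windows and matched Afp, 105 bases before its start. The words CAAAGTCCA and CAAAGGTCA, of the kind HNF4A binds, and the GATA word AGATAA matched none of the 9 genes and were in 0.384%, 0.426% and 9.99% of windows. TATAAA, in 12.4% of windows, was found for Apob, Apoe and Afp, and in Apoe its matches on the 2 strands overlapped. Each word was searched on both strands, and a match says only that the letters are there.

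Apob encodes the structural protein of very low density lipoproteins and chylomicrons, around which the particle is built. U74Av2 gave it a log2 signal of 8.21 and 8.07 for wild-type and of 8.86 and 8.62 for Foxa2 null. The MOE430v2 probe set with the higher signal, 1455593_at, read 11.15 and 10.78 in wild-type and 11.91 and 11.44 in Foxa2 null. Both null pools were above both wild-type pools on either array. The differences were 0.60 ± 0.16 and 0.71 ± 0.18 (log2 ± SE), or 1.52- and 1.64-fold (limma, Benjamini-Hochberg adjusted p = 0.227 and 0.154). A second MOE430v2 probe set, 1457554_at, went the other way: it read 10.05 and 9.58 in wild-type and 9.20 and 9.47 in Foxa2 null, a difference of -0.48 (limma, Benjamini-Hochberg adjusted p = 0.393). The Apob probe sets of this array therefore disagree in sign, and what part of the transcript each probe set reads was not analysed here.

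Mttp encodes the large subunit of the microsomal triglyceride transfer protein, which loads lipid onto apolipoprotein B as it is made. Its U74Av2 signal was low, 31.5 and 22.8 in wild-type and 56.9 and 51.7 in Foxa2 null, on an array with a median signal of 48.0 to 52.8. The 2 MOE430v2 probe sets were well above that array's median of 155 to 165: 1419400_at read 1478 and 1503 in wild-type and 2077 and 1819 in Foxa2 null, and 1419399_at read 1315 and 1254 against 2270 and 1649. In all 3 probe sets both null pools exceeded both wild-type pools. The log2 difference was 1.02 ± 0.33 on U74Av2 and 0.38 ± 0.13 and 0.59 ± 0.16 on MOE430v2 (SE), none past the test (limma, Benjamini-Hochberg adjusted p = 0.307, 0.289 and 0.196).

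Apoa4 and Apoa1 encode apolipoproteins of chylomicrons and high density lipoproteins and lie near each other on chromosome 9. Apoa4 read 7.82 and 7.57 (log2) in wild-type and 8.59 and 8.24 in Foxa2 null on U74Av2. Its brighter MOE430v2 probe set, 1436504_x_at, read 10.66 and 10.47 against 11.46 and 10.80. Both show the null pools above the wild-type pools, by 0.72 ± 0.19 and 0.56 ± 0.20 (SE, limma, Benjamini-Hochberg adjusted p = 0.215 and 0.318). The other Apoa4 probe set, 1417761_at, differed by 0.20 with overlapping groups. Apoa1 read 11.13 and 11.08 in wild-type and 11.59 and 11.00 in Foxa2 null on U74Av2, where only null pool 1 stood above the wild-type pools. On MOE430v2 its 4 probe sets differed by 0.01 to 0.26, and 2 of the 4, 1438840_x_at and 1455201_x_at, had both null pools above both wild-type pools. Without Foxa2 null pool 1 the Apoa1 difference was -0.10 on U74Av2 and -0.03 on MOE430v2.

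Apoc2, the cofactor that lipoprotein lipase needs, read 10.69 and 10.43 in wild-type and 11.22 and 10.48 in Foxa2 null on U74Av2, and 12.70 and 12.72 against 13.27 and 12.62 on MOE430v2. Only null pool 1 stood above both wild-type pools on either array. The differences of 0.29 and 0.24 became -0.08 on both arrays without that pool. Apoe, the ligand by which receptors clear lipoprotein remnants, read 11.96 and 11.98 against 12.08 and 11.81 on U74Av2. On MOE430v2 it read 13.81 and 13.87 against 14.14 and 13.57. The null pools lay on either side of the wild-type pools, 1 above and 1 below, and the mean differences were -0.02 (95% interval -0.31 to 0.26) and 0.02 (-0.34 to 0.37). These intervals leave room for a difference of up to 0.37.

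Cubn and Amn encode cubilin and amnionless, the subunits of the receptor that takes up vitamin B12 with its carrier, albumin and apolipoprotein A-I. Cubn read 10.33 and 10.37 in wild-type and 11.21 and 10.45 in Foxa2 null with the brighter U74Av2 probe set, 95000_g_at. On MOE430v2, 1452270_s_at read 12.86 and 12.75 against 13.57 and 13.09. In these probe sets the null pools were above the wild-type pools, null pool 2 by only 0.08 to 0.12 on U74Av2 and by 0.22 to 0.33 on MOE430v2. The mean differences were 0.48 ± 0.22 and 0.52 ± 0.14 (SE, limma, Benjamini-Hochberg adjusted p = 0.528 and 0.193). The second probe sets differed by 0.17 on U74Av2, where 94999_at was dim at a signal of 18.6 to 35.8, and by 0.41 on MOE430v2. Both had overlapping groups, and in the MOE430v2 one, 1426990_at, null pool 2 minus wild-type pool 1 was -0.04. Amn read 11.61 and 11.83 in wild-type and 12.34 and 11.87 in Foxa2 null, a difference of 0.39 ± 0.16 (SE, limma, Benjamini-Hochberg adjusted p = 0.379) with null pool 2 only 0.04 above wild-type pool 2.

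Afp, alpha-fetoprotein, is the main serum protein of the fetus and a classical VE marker. Its platforms disagreed. On U74Av2 the tested probe set, 101494_at, read a signal of 185 and 188 in wild-type and 154 and 116 in Foxa2 null. On MOE430v2, 1416645_a_at read 7268 and 7736 in wild-type and 10618 and 9618 in Foxa2 null. Both null pools were below the wild-type pools on the first array and above them on the second. The log2 differences were -0.48 ± 0.21 and 0.43 ± 0.09 (SE, limma, Benjamini-Hochberg adjusted p = 0.475 and 0.0951). The MOE430v2 value had the lowest adjusted p of any of the probe sets of the 10 genes. All 4 tested MOE430v2 probe sets of Afp had a difference above 0, from 0.11 to 0.62, and 3 of the 4 had null pools that did not overlap the wild-type pools. Another Afp probe set on each array, at signals of at most 9.9 and 27.4, was below the filter.

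Ttr encodes transthyretin, the carrier of thyroid hormone and of retinol-binding protein. On U74Av2 it read 7.49 and 7.70 in wild-type and 8.34 and 7.98 in Foxa2 null, a difference of 0.57 ± 0.19 (SE, limma, Benjamini-Hochberg adjusted p = 0.337) with no overlap. Its brightest MOE430v2 probe set, 1454608_x_at, read a signal of 14133 and 18188 against 16464 and 17939. These overlapped, with a difference of 0.11. The other 3 MOE430v2 probe sets differed by 0.44, 0.18 and 0.38, and in 2 of them, 1451580_a_at and 1459737_s_at, both null pools lay above both wild-type pools. The size of the Ttr difference thus depended on the probe set, while its sign did not.

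**Figure D2:**
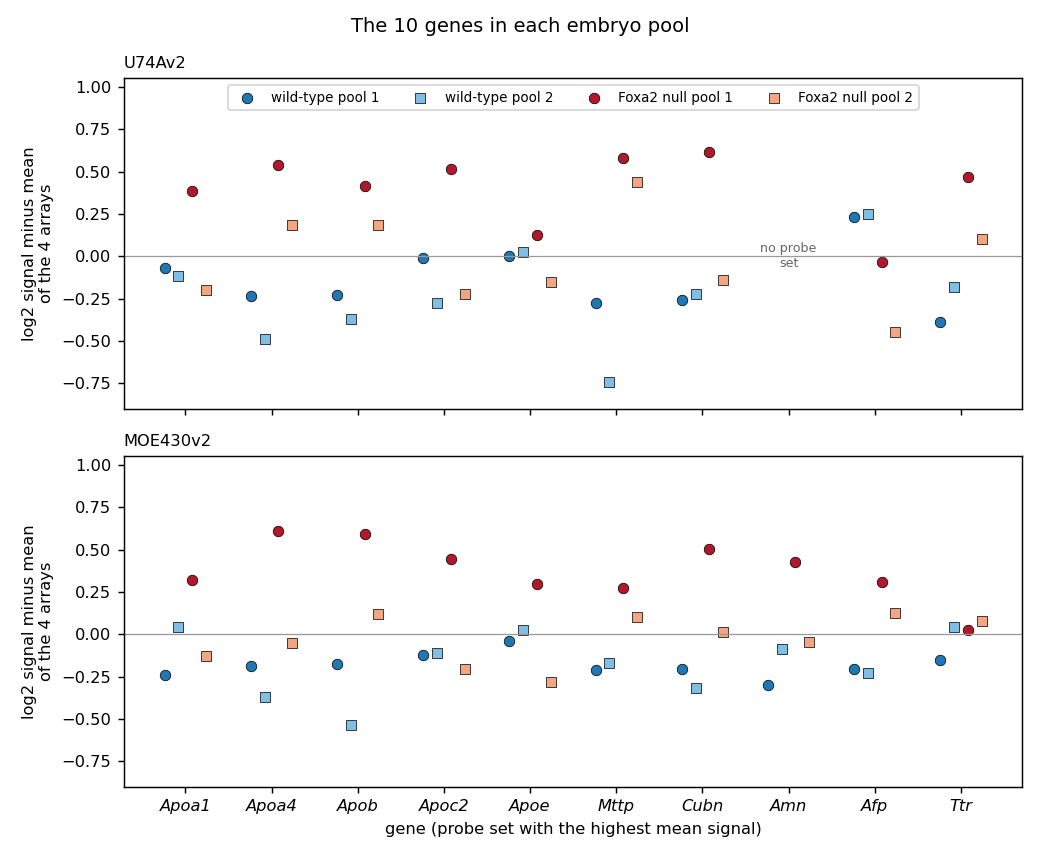
Log2 signal of each of the 10 genes minus its mean over the 4 arrays of a platform (y axis), 1 probe set per gene and 1 point per pool, with U74Av2 above and MOE430v2 below. Foxa2 null pool 1 is the top point for 8 of 9 genes on U74Av2 and 9 of 10 on MOE430v2, and Afp has opposite orders on the 2 platforms.

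The pools of a genotype were not alike. Foxa2 null pool 1 had the highest signal of the 4 arrays for 8 of 9 genes on U74Av2 and for 9 of 10 on MOE430v2, against 24.1% and 25% of all genes. The exceptions were Afp on the first and Ttr on the second. Null pool 1 exceeded null pool 2 for 9 of 9 and 9 of 10 genes, against 47.6% and 50.8% of all genes, with a median gap of 0.36 and 0.47. Over the tested probe sets the median absolute gap was 0.39 and 0.45 between the null pools, and 0.17 and 0.13 between the wild-type pools. The wild-type gap was the wider for 1 of 10 probe sets on U74Av2, that of Mttp, and for 3 of 23 on MOE430v2, 1 of Apob and 2 of Ttr. Taken alone against wild-type pool 1, Foxa2 null pool 2 was higher for 6 of 10 and 16 of 23 probe sets (51.2% and 50.0% of all), with a median of 0.27 and 0.22. Against wild-type pool 2 it was higher for 7 of 10 and 16 of 23 (49.8% and 50.1% of all), with a median of 0.18 and 0.10. The gap between the null pools was thus close in size to the mean genotype difference.

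Averaged over both platforms, so that each extract counts once, the genes showed 2 patterns. Centred on each gene's mean, Apob read -0.20 and -0.45 in wild-type and 0.50 and 0.15 in Foxa2 null. Mttp read -0.24 and -0.46 against 0.43 and 0.27, and Apoa4 -0.21 and -0.43 against 0.57 and 0.07. In these genes, and in Cubn and Ttr, both null pools exceeded both wild-type pools, which 22.2% of all genes did. Apoa1, Apoc2, Apoe and Afp overlapped, with null pool 1 highest and null pool 2 lowest. For Afp this holds only for the average, which joins platforms of opposite sign. On U74Av2 both null pools lay below both wild-type pools, and on MOE430v2 both lay above them. The combined log2 difference was 0.70 for Mttp, 0.66 for Apob, 0.64 for Apoa4, 0.50 for Cubn, 0.34 for Ttr, 0.26 for Apoc2, 0.19 for Apoa1, -0.00 for Apoe and -0.02 for Afp. Without Foxa2 null pool 1 the combined difference was 0.62 for Mttp, 0.48 for Apob, 0.39 for Apoa4, 0.19 for Cubn and 0.26 for Ttr. Single arrays moved further for Cubn on U74Av2 (0.10) and Apoa4 on MOE430v2 (0.23), and Amn came to 0.15. Neighbours in the order of all pools lie within each other's 95% intervals, which run from 0.33 to 1.06 for Mttp, from 0.33 to 0.98 for Apob and from 0.26 to 1.02 for Apoa4.

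None of these 9 genes passed the test over both platforms, which 143 of all 5933 genes did (2.41%). Those higher in Foxa2 null were 80, or 1.35% of all genes. At an unadjusted p under 0.05 there were 5 higher and 0 lower, against 7.43% of all genes higher. Apob was nearest to the threshold, 1.58-fold higher in Foxa2 null with an adjusted p of 0.0501 (limma, Benjamini-Hochberg). Mttp followed at 0.0608 and Apoa4 at 0.0926. Over the alternatives run, the adjusted p of Apob ranged from 0.000606 to 0.254. It passed with another normalization (0.0484), with 16 added to each signal (0.0412), with the pool number as a block (0.000606), without wild-type pool 1 (0.0408) and without Foxa2 null pool 2 (0.00116). It did not pass without the intensity trend (0.242), without the signal filter (0.0665), with quantile normalization (0.0640) or with median centring (0.0936). Nor did it pass without Foxa2 null pool 1 (difference 0.48), without wild-type pool 2 (0.53) or with the mean of all probe sets of a gene. That mean, which takes in the Apob probe set of opposite sign, gave a difference of 0.11 on MOE430v2 and of 0.36 over both (0.254). The difference between platforms was tested within each extract. It was greatest for Afp, where MOE430v2 minus U74Av2 was 0.92 ± 0.23 (SE, limma, Benjamini-Hochberg adjusted p = 0.559), and was -0.64 for Mttp and -0.46 for Ttr. No gene of the 5933 passed this test (0%), and 435 of them, Afp alone among the 9, did at an unadjusted p under 0.05.

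The other genes of these pathways had lower medians. Of 20 further lipoprotein genes, 13 were tested on U74Av2 and 16 on MOE430v2, and 11 and 8 had a difference above 0 (48.7% and 48.1% of all genes), with medians of 0.30 and 0.02. None passed the test, against 0.218% and 0.458% of all genes. On MOE430v2 the highest differences were those of Lpl, the lipase of the vessel wall (0.64), Apoa5, a modulator of that lipase (0.49), and Lcat, which esterifies cholesterol in plasma (0.46). The lowest were Apobec1, which edits the Apob transcript (-0.97), Angptl4, an inhibitor of lipoprotein lipase (-0.63), and Pltp, which transfers phospholipid (-0.17). Apobec1 was dim, at a signal of 34.3 to 132. P4hb, the small subunit of the Mttp complex and the brightest of the list on that array, differed by 0.06. Lpl was the only gene of the list with null pools above wild-type pools on both arrays and an unadjusted p under 0.05 on each (0.0352 and 0.00822).

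Of 17 further uptake genes, 12 and 13 were tested, 8 and 7 were above 0, and the medians were 0.06 and 0.04. Dab2, the adaptor that links cubilin and megalin to clathrin, read 9.59 and 9.45 in wild-type and 10.15 and 9.76 in Foxa2 null on U74Av2, and 12.66 and 12.67 against 12.98 and 12.79 on MOE430v2. Its differences of 0.44 and 0.22 showed no overlap of the groups and did not pass the test (limma, Benjamini-Hochberg adjusted p = 0.394 and 0.408). Lrp2, which encodes megalin, the partner of cubilin, differed by -0.10 and -0.32 with overlapping groups. On MOE430v2 the highest were Fcgrt, the neonatal Fc receptor (1.66, at a signal of 34.7 to 198), Myo6, an endocytic motor (0.51), and Gipc1, its adaptor (0.34). The lowest besides Lrp2 were Clcn5, an endosomal chloride exchanger (-0.43), and Lrp8, a receptor for apolipoprotein E (-0.42).

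Plasma protein genes that liver and VE share, other than Afp and Ttr, had medians of 0.06 (8 of 12 above 0) and 0.11 (11 of 17). On MOE430v2 the highest were Alb, albumin (1.30), Hpx, hemopexin (0.83), and Kng1, kininogen (0.72), all at signals of at most 194. Alb read a signal of 128 and 29.4 in wild-type and 120 and 183 in Foxa2 null, so its groups overlapped. The lowest were Vtn, vitronectin (-1.54), Serpind1, heparin cofactor (-1.18), and Fetub, a fetuin (-0.41), at signals of at most 250. Serpind1 read a signal of 161 and 181 in wild-type and 173 and 31.6 in Foxa2 null, so its groups overlapped. Rbp4, the retinol carrier that travels with transthyretin and the brightest of the list on MOE430v2, differed by 0.11 and 0.00. None of these passed the test.

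Other markers of the VE had medians of 0.08 (8 of 11 above 0) and 0.16 (10 of 14), and none passed the test. Pga5, which encodes a pepsinogen, differed most on MOE430v2, with a signal of 348 and 454 in wild-type and 767 and 845 in Foxa2 null, 2.01-fold (limma, Benjamini-Hochberg adjusted p = 0.0893). Pla2g12b, a gene of lipoprotein secretion in the liver (0.45), and Clic6 (0.43) followed, both with null pools above wild-type pools. Bmp2 (-0.32), Cited1 (-0.29) and S100g (-0.24) were lowest, and Spink1, the brightest on that array, differed by 0.18. Regulators of the VE had a median of 0.15 on U74Av2 (7 of 10 above 0) and of -0.23 on MOE430v2 (4 of 9), so the medians differed in sign. The genes tested were not the same, with Cebpa and Ppara on U74Av2 only and Hnf4a on MOE430v2 only. This list holds Foxa2 itself (-1.25 and -0.88), the mutated gene. Foxa2, Foxa1 and Sox17 are also in the list of DE genes. Gata4 (0.30), Sox7 (0.31) and Hnf4a (0.18) had overlapping or narrowly separated groups on MOE430v2, and Gata6 differed by 0.16. Foxa1, a relative of Foxa2 fell by 1.54 on the log2 scale on MOE430v2 (limma, Benjamini-Hochberg adjusted p = 0.0336). Sox17 differed by -0.87 and did not pass.

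**Figure D3:**
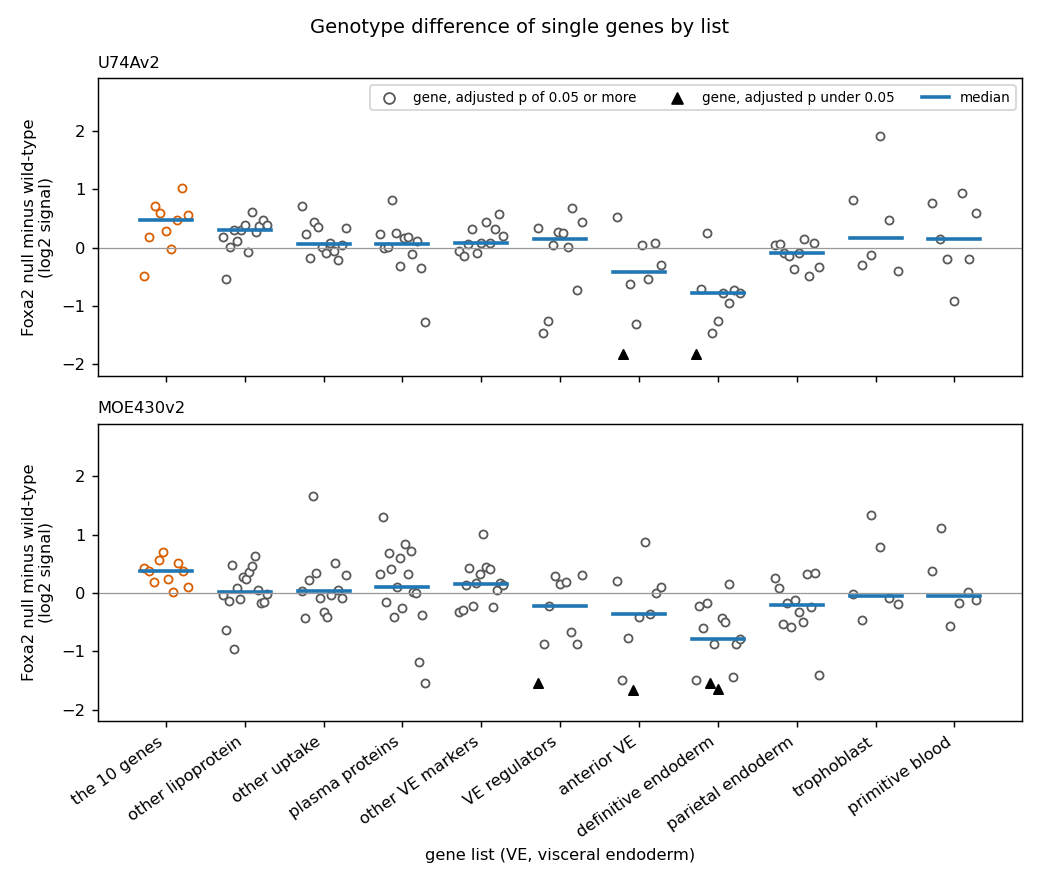
Foxa2 null minus wild-type difference in log2 signal (y axis) of each gene, grouped by list (x axis), with U74Av2 above, MOE430v2 below and the median of each list as a bar. The 10 genes have medians of 0.48 and 0.38, the DE genes -0.77 and -0.79, and no gene of any list passed the test upward.

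Markers of other tissues gave the setting for these values. Among DE genes 1 of 9 and 1 of 13 were above 0, with medians of -0.77 and -0.79. Cer1, a secreted antagonist of Nodal and BMP signals, fell by 1.82 on U74Av2 (limma, Benjamini-Hochberg adjusted p = 0.0313) and missed the test on MOE430v2 at a difference of -1.49. Foxa1 and the receptor gene Gprc5c, the latter by 1.64, fell on MOE430v2. The study named many genes of this list from these same pools, so its direction is no independent evidence. Genes of the anterior VE had medians of -0.42 and -0.35, with 3 of 8 and 4 of 9 above 0 (48.7% and 48.1% of all genes). Amot was higher in both null pools on each array (0.52 and 0.20). Lhx1 was higher in both null pools on MOE430v2 (0.87), and its groups overlapped on U74Av2 (0.08). Neither gene passed the test. Dkk1, which did not pass either, was lower in both null pools on each array (-0.63 and -0.78). Both null pools lay below both wild-type pools for 4 of 8 and 4 of 9 genes (21.1% and 23.7% of all). They lay above both for 1 and 2 genes (19.2% and 21.7% of all). In that list Cer1, which both lists hold, was called on U74Av2, and Hesx1, also a gene of the anterior neural plate, fell by 1.66 on MOE430v2 (limma, Benjamini-Hochberg adjusted p = 0.0460). These calls on the lists were lost when limma was fitted without its intensity trend or without the signal filter. Parietal endoderm genes had medians of -0.09 and -0.21.

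Trophoblast genes had medians of 0.17 and -0.05, with 6 of 12 tested on each array. Their summed signal was 847 to 929 in wild-type and 1000 to 1222 in Foxa2 null on U74Av2, and 5568 to 5662 against 6944 to 8075 on MOE430v2. Eomes (1.92 and 1.34) and Hand1 (0.47 and 0.78), which the streak and the early mesoderm also express, were above wild-type in both null pools. The higher sum was theirs: without them it was 382 to 466 in wild-type and 328 to 405 in Foxa2 null on U74Av2, and 2786 to 3350 against 2258 to 2983 on MOE430v2. Cdx2 (-0.13 and -0.46), Plac1 (-0.40 and -0.09) and Bmp4 (-0.29 and -0.02) had differences below 0 on both arrays, as did Rhox9 on MOE430v2 (-0.19), while Ascl2 had 0.82 on U74Av2. The placental markers Tpbpa, Prl3d1 and Gcm1 had no probe set that was tested on either array. The trophoblast sum was highest in null pool 2, whereas the 10 genes were highest in null pool 1. Its part in the result was not tested.

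Genes of primitive blood, which forms in the yolk sac, had their highest summed signal in null pool 1. For single genes this held for 5 of 6 on MOE430v2 and for only 3 of 7 on U74Av2. Of 10 such genes, 7 and 6 were tested, and their summed signal on MOE430v2 was 1755 and 2553 in wild-type and 3067 and 1352 in Foxa2 null. On U74Av2 it was 356 and 563 against 633 and 316. The embryonic globin Hbb-bh1 read 191 and 821 in wild-type and 960 and 74.5 in Foxa2 null on MOE430v2. The blood genes thus ordered the null pools as the 10 genes did, with null pool 1 above null pool 2 for 6 of 7 and 5 of 6, and their summed signal also differed between the wild-type pools. Other lists had this order too: null pool 1 exceeded null pool 2 for 11 of 12 and 10 of 13 uptake genes, 9 of 11 and 12 of 14 other VE markers, and 8 of 10 and 8 of 12 parietal endoderm genes. Carry-over of yolk sac with its VE and blood into a pool was not tested.

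**Figure D4:**
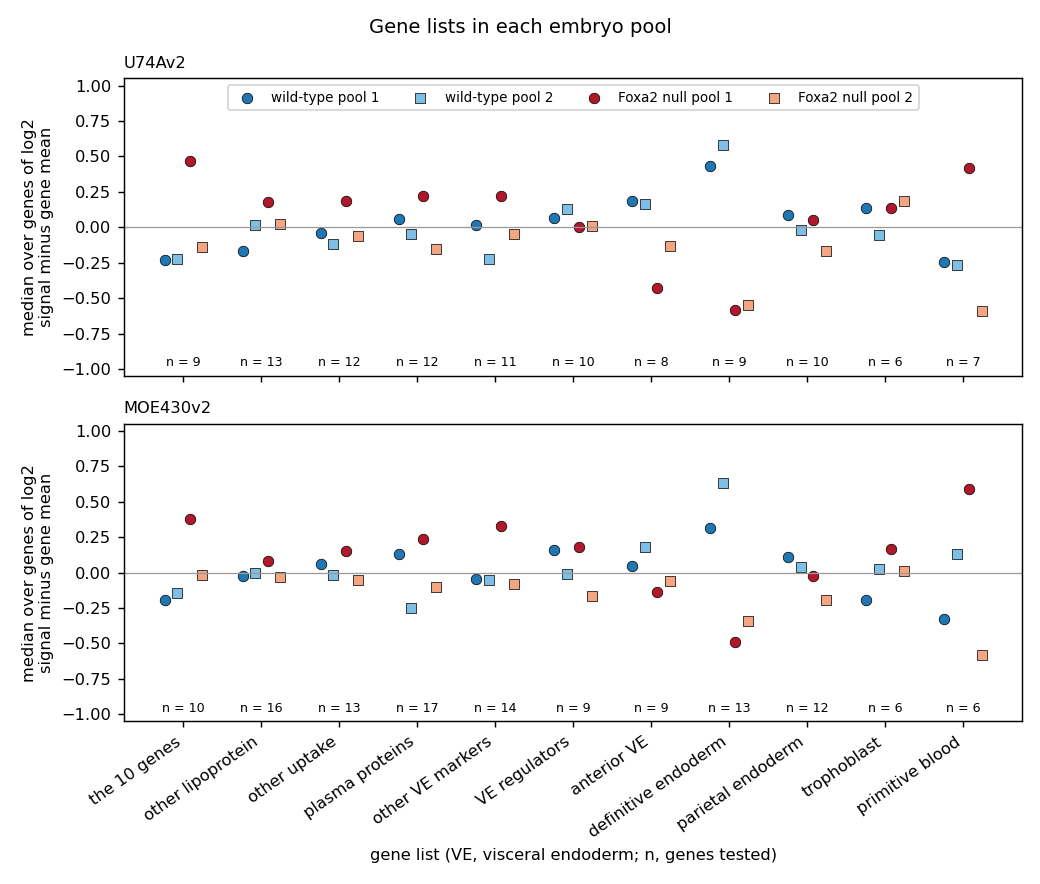
Median over the genes of a list of the log2 signal minus the gene's mean over 4 arrays (y axis) in each pool, for the 10 genes and 10 other lists (x axis), U74Av2 above and MOE430v2 below, with the number of genes tested under each. The 10 genes stand at 0.47 and 0.38 in Foxa2 null pool 1 and between -0.23 and -0.01 in the other pools, the DE genes separate by genotype, and the blood genes are highest in null pool 1 and lowest in null pool 2.

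Genes outside the set whose centred log2 profile over the 8 arrays lay nearest to the mean of the 9 genes measured on both platforms were sought among all 5933 genes by Euclidean distance. The 10 nearest, at distances of 0.151 to 0.246, were Id2, Tsfm, Ctsb, Ublcp1, Alpl, Dab2, Gstz1, St3gal6, Apcdd1 and Pdpk1. Dab2 is the endocytic adaptor described above. The differences of these 10 genes ranged from 0.25 to 0.46 on U74Av2 and from 0.20 to 0.32 on MOE430v2. Among the 9 genes themselves, Cubn, Apoc2 and Apoa1 lay nearest to their common mean, at distances of 0.333, 0.335 and 0.340, and Mttp and Afp lay farthest, at 0.744 and 0.877. By distance among all 5933 genes, Cubn ranked 52, Mttp 2056 and Afp 3112, so many genes outside the set lay nearer. The 8 arrays hold only 4 extracts, so likeness here describes 4 pools.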

How the data were processed

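RNA of 4 embryo pools was measured on U74Av2 and MOE430v2 arrays, 8 arrays in all. The deposited values are MAS5 signals, linear intensities in which all arrays of a platform share a trimmed mean, here 150 for U74Av2 and 500 for MOE430v2. For U74Av2 the methods name a higher scaling target than the deposited values show. Change calls by MAS5 and a Wilcoxon test over probes, which the methods name, need probe values that are not analysed here. Per the study's supplement, the U74Av2 arrays were hybridised on 2 days with 1 array of each genotype on each, and which pool fell on which day is not given in the sources used here.

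The log2 signals were analysed with limma 3.58.1, data.table (version 1.17.8) and R 4.3.3. No further scaling was done for U74Av2, and MOE430v2 was normalised by cyclic loess, as the methods describe. Control probe sets (66 and 64) and the dimmest 30% of the remaining probe sets, by mean log2 signal, were left out, which left 8695 and 31526. Genes were named from the platform annotation: 10833 and 34945 probe sets named 1 gene, 396 and 932 several and 1193 and 9160 none, and only the first were used for genes. Foxa2 null minus wild-type was tested with a two-sided limma fit (lmFit, then eBayes with trend), adjusted by Benjamini-Hochberg over all features tested, at a threshold of 0.05. Over both platforms, values centred per gene were averaged for each extract. No separate cultures or litters are named, so p-values measure the spread between pools, and the number of pools, 2 per genotype, limits the precision. With 2 pools on each side the smallest p of an exact permutation is 0.333. The script was tested on simulated data.

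The 10 genes and all lists were chosen with earlier results of these data known. All probe sets of the 10 genes are named. From each other list are named the genes past the threshold, the brightest gene, and the 3 highest and 3 lowest differences on MOE430v2, and beyond these the 10 genes of nearest profile. Not every gene so chosen is printed for the lists of other tissues, and the untested placental markers were named after their values were seen. Alternatives were another normalization, quantile normalization, median centring, no filter, an offset of 16, no intensity trend, the pool number as a block, the mean of a gene's probe sets, and each pool left out in turn.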

Additional observations from a re-analysis of the deposited data

How the results depend on the processing

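Under every alternative run, the median difference of the 10 genes stayed above 0 on both arrays. It ranged from 0.10 (without Foxa2 null pool 1) to 0.72 (without Foxa2 null pool 2) on U74Av2. The corresponding ends were 0.19 and 0.55 on MOE430v2 and 0.19 and 0.61 over both. With no pool left out, no probe set of the 10 genes passed the test outside the fit with the pool number as a block. Apob over both platforms was the 1 gene to pass with another normalization and with an offset of 16. With pools left out in turn, the probe sets called were 0 (U74Av2) and from 0 to 5 (MOE430v2), the genes called over both were 0 to 6, and the genes called on the other lists were 1 to 2 (U74Av2) and from 0 to 8 (MOE430v2). The 5 and the 6 came without Foxa2 null pool 2, 1 gene over both was called without wild-type pool 1, and the 8 came without Foxa2 null pool 1. A lone remaining pool is assumed to vary like the other genotype. The list calls, 1 and 3, became 0 and 0 without the intensity trend and 0 and 0 without a filter, and 5 on MOE430v2 with an offset of 16. Over all probe sets the calls, 24 and 137, became 0 and 0 without the trend, 3 and 43 without a filter, and 292 and 1648 with the block. In the fit with the replicate block, 2 and 11 probe sets of the 10 genes, 4 genes over both platforms and 8 and 18 list genes passed. Pools that share a number deviated together only weakly (r = 0.111 on U74Av2 and 0.0851 on MOE430v2, over probe sets), the labels do not say that a number pairs them, and with 2 pairs the block leaves few degrees of freedom. The direction turned only for genes with small differences. Apoe became 0.0297, 0.0499 and 0.0181 on U74Av2 and 0.0200, 0.0383 and 0.0142 over both with another normalization, quantile normalization and median centring. With pools left out in turn, Apoe ranged from -0.16 to 0.11 on U74Av2, -0.27 to 0.31 on MOE430v2 and -0.22 to 0.21 over both. Apoa1 ranged from -0.104 to 0.48, -0.0251 to 0.43 and -0.0646 to 0.45, Apoc2 from -0.0796 to 0.66, -0.0813 to 0.57 and -0.0804 to 0.61, and Afp over both from -0.17 to 0.13. The cause of each of these shifts was not tested beyond the pools left out.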
